A study of Mus musculus with 46 samples.

Results

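TRBV20 (Trbv20, also called Vβ15) is 1 of 23 V segments listed in mouse T cell receptor beta (TCRβ) tables of this study. Its rearrangements were taken as every table entry whose V segment was TRBV20, which gave 6970 of 153913 entries over 17 libraries. An entry is a rearrangement, that is a V segment, a J segment and a nucleotide sequence of the third complementarity-determining region (CDR3). In the RefSeq annotation of GRCm38.p6, Trbv20 is a V segment on chromosome 6, from 41188273 to 41188977, between Trbv19 and Trbv21. TRBV20 was chosen because of its reads in the central nervous system (CNS) and in large regulatory T cell (Treg) clones, so those values are given as descriptions without a test.

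The libraries were made by PCR from genomic DNA of sorted cells, and the labels list 46 samples, of which 29 were not analysed here. The CNS libraries (n = 3) and the periphery libraries (n = 3, spleen and lymph nodes) came from the strain labelled C57BL/6 WT. These mice were not pregnant and had experimental autoimmune encephalomyelitis (EAE), a model of multiple sclerosis, and the cells were labelled CD8-T cells. That label can be read as T cells with CD8 or as T cells without it. Treg (CD4+Foxp3+) and conventional T cells (Tcon, CD4+Foxp3-) came from spleen and lymph nodes of the DEREG mouse, a line whose Foxp3-driven transgene marks Treg. Treg of EAE mice at E18, day 18 of gestation, formed a group of 5 libraries. Treg of EAE and of Naive mice that were non-preg, and Tcon of EAE E18, EAE non-preg, Naive E18 and Naive non-preg mice, had 1 library each. Whether libraries with the same number came from the same mouse is not given.

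A library held 278420 to 571124 reads and 1698 to 19898 different rearrangements, and TRBV20 had 121 to 815 rearrangements per library. The number of cells behind a library is unknown, so a few cells amplified strongly and many cells of a clone cannot be told apart. No TRBV20 rearrangement in any of the 17 libraries lay 1 base from another TRBV20 rearrangement with at least 50 times its reads in the same library. None of the 6253 TRBV20 CDR3 nucleotide sequences was also listed under another V segment. No transcripts were measured, so cell types could not be checked against marker genes. The V segments favoured by natural killer T cells (TRBV13-2, TRBV29 and TRBV1) held 20.3% to 42.3% of the reads of a library.

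The TCRβ chain is assembled in developing T cells by joining a V, a D and a J segment. The CDR3 spans that junction, and bases trimmed or added there make most of its diversity. The CDR3 contacts the presented peptide, while the V segment encodes the other 2 complementarity-determining regions of the chain. All descendants of a T cell carry its rearrangement, so a rearrangement marks a clone. Different nucleotide sequences can encode the same CDR3, and a CDR3 found with several of them arose in separate rearrangements or from errors in reading.

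The following CDR3 sequences, as listed in the deposited tables, are shown because each amino acid sequence was found with several nucleotide sequences. Capitals mark the bases at which the sequences of a set differ. The first set encodes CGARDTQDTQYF, joined to TRBJ2-5, with the first sequence led by CNS replicate 3 and the second by CNS replicate 2.
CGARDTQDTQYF, CNS replicate 3: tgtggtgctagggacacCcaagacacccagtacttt
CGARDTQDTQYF, CNS replicate 2: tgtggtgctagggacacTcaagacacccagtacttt
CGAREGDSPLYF, CNS replicate 2: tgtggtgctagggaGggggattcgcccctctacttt
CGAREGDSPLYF, CNS replicate 3: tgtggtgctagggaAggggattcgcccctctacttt
Leading clonotype of Treg EAE E18 replicate 2: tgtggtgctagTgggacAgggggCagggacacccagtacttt
The same amino acids in periphery replicate 1: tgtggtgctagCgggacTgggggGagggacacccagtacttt
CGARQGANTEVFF, Treg EAE E18 replicate 2, larger: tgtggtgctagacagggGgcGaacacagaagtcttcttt
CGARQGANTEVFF, Treg EAE E18 replicate 2, smaller: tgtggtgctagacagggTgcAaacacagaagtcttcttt
Widely found TRBJ2-1 clonotype, CNS replicate 1: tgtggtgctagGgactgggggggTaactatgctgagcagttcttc
Widely found TRBJ2-1 clonotype, Tcon Naive non-preg replicate 1: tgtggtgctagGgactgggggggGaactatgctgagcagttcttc
Widely found TRBJ2-1 clonotype, Tcon EAE E18 replicate 5: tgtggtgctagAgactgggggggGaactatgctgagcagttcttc

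TRBV20 held more reads in CNS than in most other libraries, and by far the most in a single Treg library. Its share of reads was 6.35%, 15.7% and 21.7% in CNS replicates 1, 2 and 3, a mean of 14.6% ± 7.7 (SD, n = 3). In periphery replicates 1, 2 and 3 it was 9.48%, 4.63% and 5.52%, a mean of 6.55% ± 2.6 (SD, n = 3). The 2 groups overlapped, since periphery replicate 1 lay above CNS replicate 1, and 0.0% of 22 V segments had all 3 CNS libraries above all 3 periphery libraries by reads. Treg of EAE E18 mice gave 4.14%, 47.8%, 2.99%, 2.61% and 3.75% in replicates 1 to 5. Replicate 2 (Wilson 95% interval 47.6% to 47.9%) stood apart, and the other 4 averaged 3.37% ± 0.70 (SD, n = 4). The remaining Treg libraries gave 2.60% for EAE non-preg and 2.77% for Naive non-preg. Tcon libraries gave 4.15% for EAE E18, 3.30% for EAE non-preg, 4.93% for Naive E18 and 2.45% for Naive non-preg. These 6 single libraries lay between 2.45% and 4.93%. They differ from the CNS libraries in strain, tissue and sorted cells, and the parts of these cannot be told apart. By reads TRBV20 ranked 4, 2 and 2 among the V segments of the CNS libraries, 1 in the Treg library that stood apart, and 3 to 13 in the other libraries.

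Counted once per rearrangement, the TRBV20 share varied far less. It was 6.21%, 5.61% and 7.13% in CNS replicates 1 to 3 (6.31% ± 0.77, SD, n = 3) and 4.52%, 3.72% and 4.84% in the periphery (4.36% ± 0.57, SD, n = 3). The lowest CNS library lay above the highest periphery library, as for 18.2% of the 22 V segments with a mean of at least 10 rearrangements, and nothing is read from this because TRBV20 was chosen for it. The Wilson 95% intervals of CNS replicate 2 (4.76% to 6.59%) and periphery replicate 3 (4.33% to 5.41%) overlapped. These intervals cover the counting error of rearrangements only. The Wilson intervals given for shares of reads do not measure precision in cells, because PCR reads without molecular identifiers are not independent molecules. In Treg libraries the share lay between 3.85% and 4.69% (4.24% ± 0.27, SD, n = 7), and Treg EAE E18 replicate 2 had 4.69%. Tcon libraries lay between 4.10% and 5.50% (4.84% ± 0.59, SD, n = 4).

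Low-read copies of sequences that were abundant elsewhere touched the CNS counts. Of the TRBV20 rearrangements of CNS replicate 1, 83 of 191 (43.5%) were held by another library at 100 times or more their reads. The share was 22.1% in CNS replicate 2, 6.61% in CNS replicate 3 and 0% to 10.8% in the other libraries. Over all V segments it was 21.0%, 13.0% and 11.5% in CNS replicates 1, 2 and 3, so TRBV20 lay above it in the first 2 and below it in the last. With such entries left out of a library, the TRBV20 share of rearrangements was 4.44%, 5.02% and 7.52% in CNS and 3.63% to 4.60% in the periphery. CNS replicate 1 then lay within the periphery's range. Whether these entries were carried over between libraries was not tested.

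**Figure D1:**
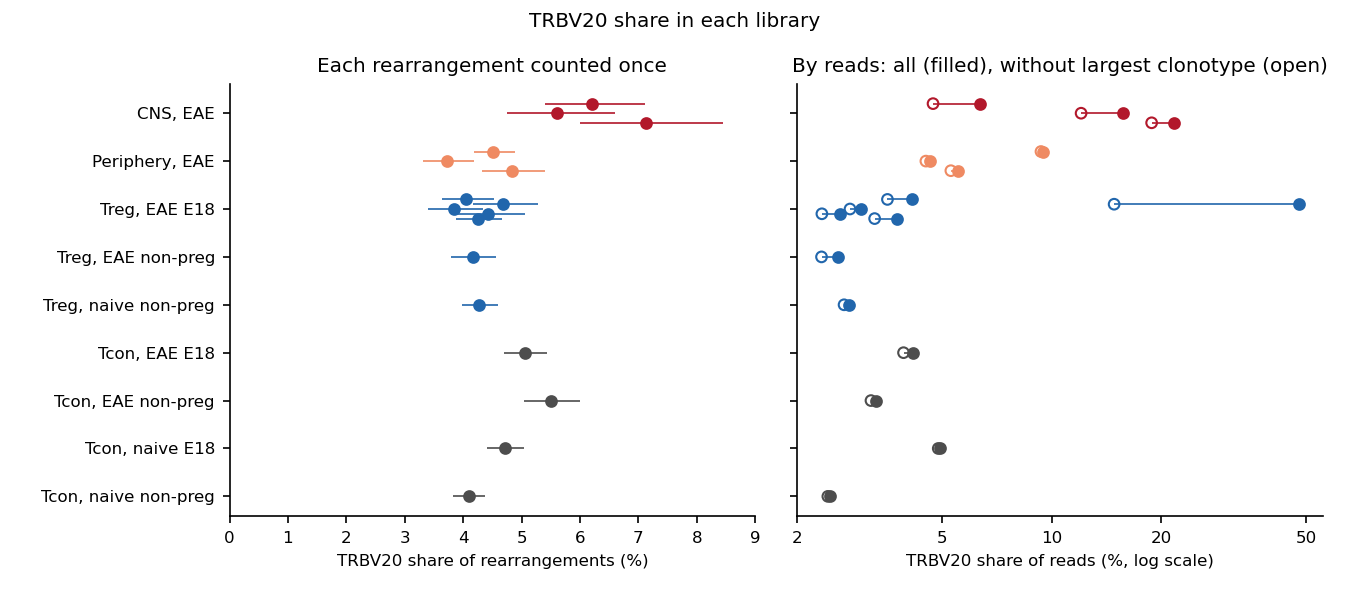
TRBV20 share of rearrangements (left, %, with Wilson 95% intervals) and of reads (right, %, log scale) in each of 17 libraries, where open circles leave out the reads of the largest TRBV20 clonotype. The shares of rearrangements lie between 3.72% and 7.13%, while the share of reads reaches 47.8% in Treg EAE E18 replicate 2.

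A few large clones held most TRBV20 reads in CNS. A rearrangement was called large at 0.1% or more of the reads of its library. CNS replicates 1, 2 and 3 had 10, 20 and 31 large TRBV20 rearrangements, periphery replicates 1, 2 and 3 had 2, 2 and 5. TRBV20 reads outside large rearrangements made up 1.68%, 1.23% and 0.771% of CNS reads, and 9.23%, 4.39% and 4.79% of periphery reads. Neither measure overlapped between the groups, with CNS higher in the number of large rearrangements, as for 27.3% of 22 V segments, and lower in the reads outside them, as for 72.7%. Large TRBV20 rearrangements held 4.67%, 14.5% and 20.9% of CNS reads and 0.254%, 0.246% and 0.732% of periphery reads, again without overlap, as for 36.4% of V segments. Over all V segments, CNS libraries had 153, 167 and 203 large rearrangements and periphery libraries 14, 40 and 105, so the order was that of the whole library. At the threshold, the smallest large rearrangement of a CNS library held 0.101% to 0.118% and the next one below held 0.0919% to 0.0990%. Of all large rearrangements of a library, TRBV20 made up 6.54%, 12.0% and 15.3% in CNS and 14.3%, 5% and 4.76% in the periphery, where the first value rests on 14 large rearrangements.

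Among Treg of EAE E18 mice, replicates 1 to 5 had 8, 34, 9, 3 and 6 large TRBV20 rearrangements. Treg of EAE non-preg mice had 3 and those of Naive non-preg mice 0. Tcon had 4 in EAE E18, 1 in EAE non-preg, 0 in Naive E18 and 0 in Naive non-preg. The TRBV20 count was therefore highest in Treg EAE E18 replicate 2 and CNS replicate 3. Over all V segments, large rearrangements numbered 168, 116, 161, 157 and 136 in Treg EAE E18 replicates 1 to 5. They numbered 115 in Treg EAE non-preg, 13 in Treg Naive non-preg, 36 in Tcon EAE E18 and 135 in Tcon EAE non-preg. TRBV20 made up 4.76%, 29.3%, 5.59%, 1.91% and 4.41% of them in Treg EAE E18 replicates 1 to 5. In Tcon EAE E18 it made up 11.1%, in Treg EAE non-preg 2.61% and in Tcon EAE non-preg 0.741%. TRBV20 rearrangements with 1% or more of reads numbered 2, 4 and 4 in CNS and 2 in Treg EAE E18 replicate 2. None was found in the other 13 libraries. Over all V segments they numbered 10, 16 and 15 in CNS, 5 in that Treg library and 0 to 8 in the other 13.

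**Figure D2:**
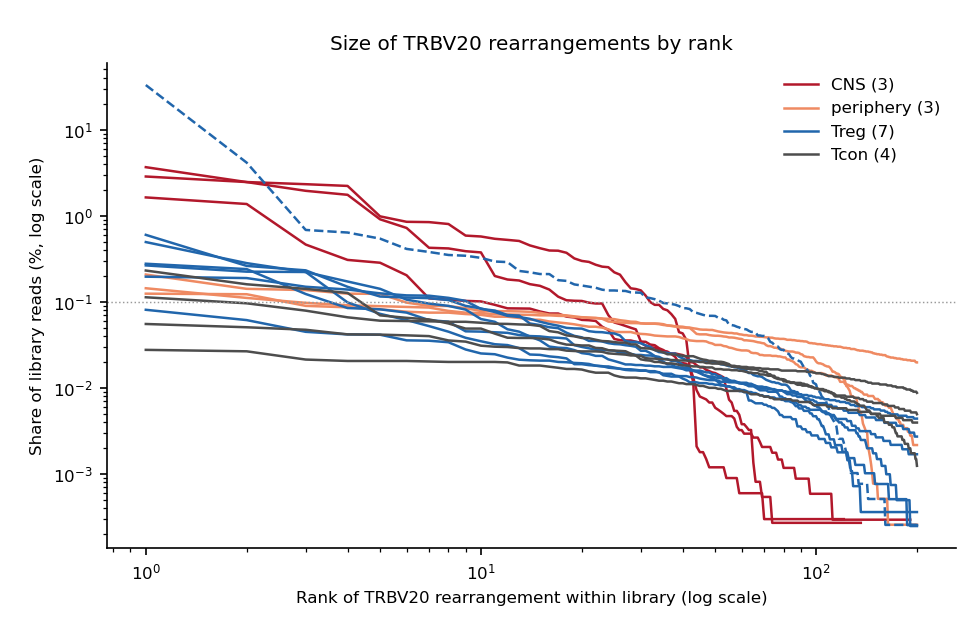
Share of library reads (%, log scale) of each TRBV20 rearrangement against its rank in the library (log scale, first 200), 1 line per library, with Treg EAE E18 replicate 2 dashed and a dotted line at 0.1%. The CNS lines start at 1.63% to 3.66% and the dashed line at 32.9%, while the other lines start at 0.598% or less.

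The CNS libraries were led by different TRBV20 clonotypes, where a clonotype pools all TRBV20 rearrangements that encode 1 CDR3. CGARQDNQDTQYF (TRBJ2-5) led CNS replicate 1 with 1.63% of reads (Wilson 95% interval 1.59% to 1.67%). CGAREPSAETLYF (TRBJ2-3) led CNS replicate 2 with 3.66% (3.60% to 3.72%), and it was also listed in periphery replicate 3 with 298 reads, 0.0763%. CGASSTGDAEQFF (TRBJ2-1) led CNS replicate 3 with 2.85% (2.79% to 2.91%). In the other CNS libraries each of these 3 was at 0.0246% or less. The other clonotypes with 1% or more of CNS reads that were large in 1 CNS library included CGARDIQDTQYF (1.37%, CNS replicate 1), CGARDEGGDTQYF (2.46%) and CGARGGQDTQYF (1.75%), both in CNS replicate 2. In CNS replicate 3 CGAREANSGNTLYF held 2.32%. Of these 4, the 3 from CNS replicates 1 and 2 were joined to TRBJ2-5 and the last to TRBJ1-3. The leading clonotypes of the periphery held 0.143% (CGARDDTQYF), 0.124% (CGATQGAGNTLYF) and 0.241% (CGAV, which lacks the usual closing phenylalanine).

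The 61 large CNS rearrangements encoded 59 clonotypes, and 2 of these clonotypes were large in more than 1 CNS library. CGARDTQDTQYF held 2.46% of reads in CNS replicate 3 with 8264 reads, and 0.416% in CNS replicate 2 with 1545 reads. The 2 libraries carried different nucleotide sequences, shown above, which differ at 1 base. The sequence of CNS replicate 3 was found in periphery replicate 1 with 236 reads, and that of CNS replicate 2 in periphery replicate 3 with 551 reads. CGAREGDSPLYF (TRBJ1-6) held 1.94% in CNS replicate 2 with 7221 reads and 0.586% in CNS replicate 3 with 1972 reads, again with sequences that differ at 1 base. Its first sequence was found in periphery replicate 3 with 207 reads. In both cases each CNS library led with its own sequence.

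By the largest mean share in CNS among clonotypes found in at least 2 CNS libraries within the 100-fold limit, 3 further clonotypes were named. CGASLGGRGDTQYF held 2.31% in CNS replicate 3, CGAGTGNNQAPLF held 0.538% and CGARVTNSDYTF held 0.451%, each in that library. In the other CNS libraries each was at 0.0184% or less. Within the limit, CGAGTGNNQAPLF had 1 read in CNS replicate 1, with a sequence that differs at 1 base from that of CNS replicate 3. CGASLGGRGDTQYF had 4 reads in CNS replicate 1 and 1 read in CNS replicate 2. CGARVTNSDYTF had 18 reads in CNS replicate 1, with the same sequence that had 1516 reads in CNS replicate 3, which is close to the limit. The place of all 3 among shared clonotypes thus rests on few reads. Without that limit the order differs, since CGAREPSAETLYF, for example, was listed in all 3 CNS libraries.

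Large CNS rearrangements were traced in the other libraries by their exact V, J and nucleotide sequence. Whether a match came from the same clone was not tested. Of the 31 in CNS replicate 3, 30 were listed in CNS replicate 1, at a median of 0.802% of their reads in CNS replicate 3. Of the 20 in CNS replicate 2, 16 were listed in CNS replicate 1 (median 0.489%) and 16 in periphery replicate 1 (median 0.463%). Of these copies 7 of 30, 2 of 16 and 0 of 16 were within the 100-fold limit. Among periphery libraries, periphery replicate 3 held 7 of the 20 from CNS replicate 2, at a median of 13.4% of the reads there. Periphery replicate 2 held 2 of the 10 from CNS replicate 1, and periphery replicate 1 held 1 of the 31 from CNS replicate 3. These links between CNS and periphery, all within the limit, ran between libraries with different numbers. DEREG libraries held single large CNS rearrangements within the limit as well. Of those from CNS replicate 2, Treg EAE E18 replicate 1 held 1 (82 reads) and Tcon EAE E18 held 1 (18 reads). Tcon EAE non-preg held 1 from CNS replicate 3 (55 reads) and Tcon Naive E18 held 1 from CNS replicate 1 (22 reads). The link of CNS replicate 3 to periphery was thus no more frequent than its link to Tcon EAE non-preg.

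**Figure D3:**
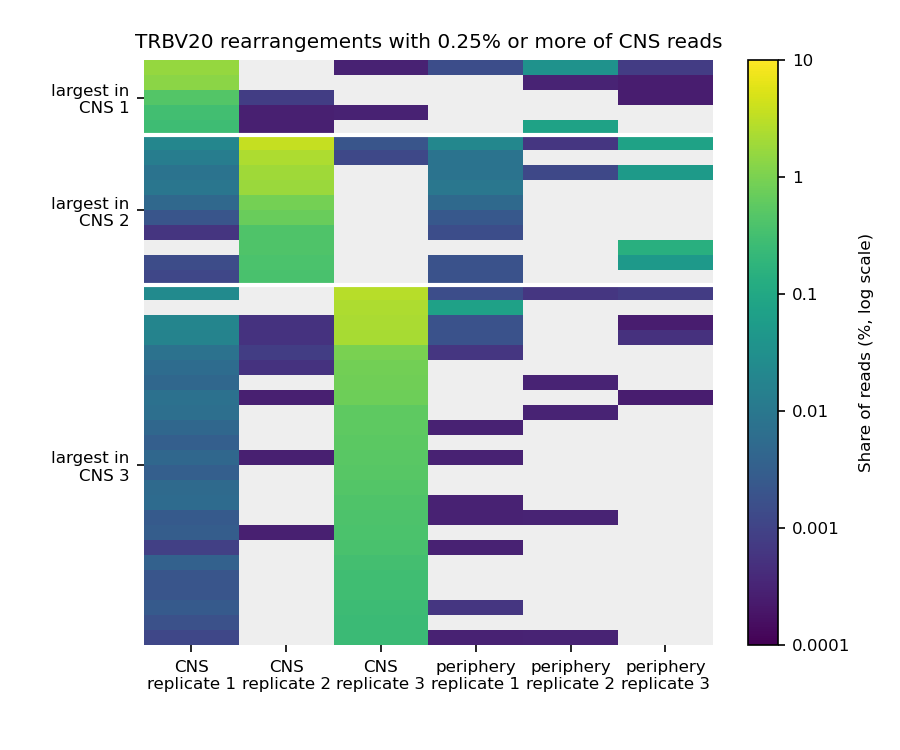
Share of reads (%, colour on a log scale, grey where not listed) of the 39 TRBV20 rearrangements with 0.25% or more of the reads of a CNS library (rows, grouped by the CNS library where they were largest) in the CNS and periphery libraries (columns). Rows of CNS replicates 2 and 3 have low-level copies in CNS replicate 1, and several rows of CNS replicate 2 are also found in periphery replicate 3.

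Most TRBV20 reads of Treg EAE E18 replicate 2 belonged to 1 clonotype. This leading clonotype, whose sequence is shown above (TRBJ2-5, TRBD1), held 32.9% of all reads of the library (Wilson 95% interval 32.8% to 33.1%), with 129281 reads, or 69.0% of the TRBV20 reads. With this clonotype left out and the rest rescaled, TRBV20 still held 22.1% of reads. The next clonotypes were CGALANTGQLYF (TRBJ2-2) with 4.13% and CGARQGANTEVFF (TRBJ1-1) with 1.22%. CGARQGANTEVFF was made up of 2 nucleotide sequences in this library, with 2676 and 2122 reads, which differ at 2 bases. The second was found in Treg of the Naive non-preg mouse with 64 reads. Another nucleotide sequence for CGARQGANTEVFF had 42 reads in Tcon EAE non-preg. The 34 large rearrangements used 9 J segments, with 13 joined to TRBJ2-5. The leading sequence was also listed in 7 other libraries, each time beyond the 100-fold limit. Another nucleotide sequence for the same amino acids, which differs at 3 bases, had 189 reads (0.0573%) in periphery replicate 1. CNS replicate 1 listed 20 of the 34 large rearrangements, none above 0.512% of their reads in the Treg library, and CNS replicates 2 and 3 listed 0.

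In the other Treg libraries the leading TRBV20 clonotypes were smaller. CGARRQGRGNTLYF held 0.598%, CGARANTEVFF 0.195%, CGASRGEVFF 0.276% and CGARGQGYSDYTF 0.493% in EAE E18 replicates 1, 3, 4 and 5. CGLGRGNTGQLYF led EAE non-preg with 0.264% and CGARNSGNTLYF led Naive non-preg with 0.0839%. In Tcon, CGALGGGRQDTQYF led EAE E18 with 0.230% and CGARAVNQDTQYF led Naive E18 with 0.0551%. Clonotypes joined to TRBJ1-2 led EAE non-preg with 0.113% and Naive non-preg with 0.0276%. All Tcon leaders lay below the leaders of 4 of the 5 Treg EAE E18 libraries, the exception being replicate 3. Nothing is read from this, because TRBV20 was chosen with its large Treg clones known. Only Tcon EAE E18 shares the condition of those Treg libraries. Over all V segments, large rearrangements numbered 116 to 168 in Treg EAE E18. They numbered 36, 135, 1 and 0 in Tcon EAE E18, EAE non-preg, Naive E18 and Naive non-preg.

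Most TRBV20 rearrangements were private to a library. Of 6264 different ones, 5754 were listed in 1 library and 510 in several, or 325 with the 100-fold rule. Of 5451 clonotypes under that rule, 599 (11.0%) had several nucleotide sequences. The most widely found were a clonotype joined to TRBJ2-1, with 3 of its sequences shown above, and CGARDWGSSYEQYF, each in 9 libraries. A further 5 were found in 8 libraries, of which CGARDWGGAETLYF, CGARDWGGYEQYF and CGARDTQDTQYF had the largest mean shares, and the others were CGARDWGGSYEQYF and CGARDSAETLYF. Of these 7, 5 begin with CGARDWG, the TRBJ2-1 clonotype among them. The TRBJ2-1 clonotype and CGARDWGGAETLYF each had 8 nucleotide sequences, the highest number for any TRBV20 clonotype. Some of these listings rest on few reads. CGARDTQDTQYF had 1, 2, 1 and 5 reads in Treg EAE E18 replicates 1, 3 and 4 and Tcon EAE non-preg. In Treg EAE E18 replicate 3 it was the sequence of CNS replicate 3, listed with TRBJ1-6 in place of TRBJ2-5. The 100-fold rule compares entries with the same J segment, so it could not remove that entry.

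The residues DWG were looked at after this list was seen, and so carry no test. They stood in 7.02% ± 2.2 of TRBV20 rearrangements per library and in 5.01% ± 0.60 of those of other V segments (SD, n = 17). The share was higher for TRBV20 in 14 of 17 libraries. Of the 521 TRBV20 entries with DWG, 97.7% had TRBD2 assigned. In CNS the share of TRBV20 rearrangements with DWG was 5.76%, 5.15% and 1.65%, and in the periphery it was 10.3%, 4.49% and 8.16%, so the groups overlapped.

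TRBV20 CDR3s differed from those of other V segments within libraries in 3 of 4 features. They were shorter, with a mean of 13.05 ± 0.12 amino acids against 13.89 ± 0.10 (SD, n = 17), a difference of -0.84 found in 17 of 17 libraries. This difference gave an adjusted p of 2.67e-05 (two-sided sign-flip permutation test over libraries, Benjamini-Hochberg over 4 features, raw p = 2e-05). That raw p is the smallest the 100000 resamples can give. Among 22 V segments TRBV20 had the second shortest mean, after TRBV30 with 12.8. Nearly all TRBV20 CDR3s (95.8%) began with CGA, and the first 12 bases were the same in 54.0% of entries.

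J segments of cluster 1 were joined to 32.3% ± 4.2 of TRBV20 rearrangements and 28.1% ± 1.7 of others, higher in 17 of 17 libraries (permutation test, adjusted p = 2.67e-05). Weighted by reads the difference was 5.01 percentage points and did not pass (permutation test, adjusted p = 0.183). No D segment was assigned in 34.3% ± 3.3 of TRBV20 and 27.6% ± 1.9 of other rearrangements, higher in 16 of 17 libraries (permutation test, adjusted p = 2.67e-05). A hydrophobic residue at CDR3 position 6 or 7 was found in 23.3% ± 2.8 and 24.3% ± 1.6, lower in 11 of 17 libraries, which did not pass (permutation test, adjusted p = 0.119). Libraries may share mice, which the labels do not say. No other V segment was tested against the rest for these 4 features. The tests therefore do not show that these differences are particular to TRBV20.

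**Figure D4:**
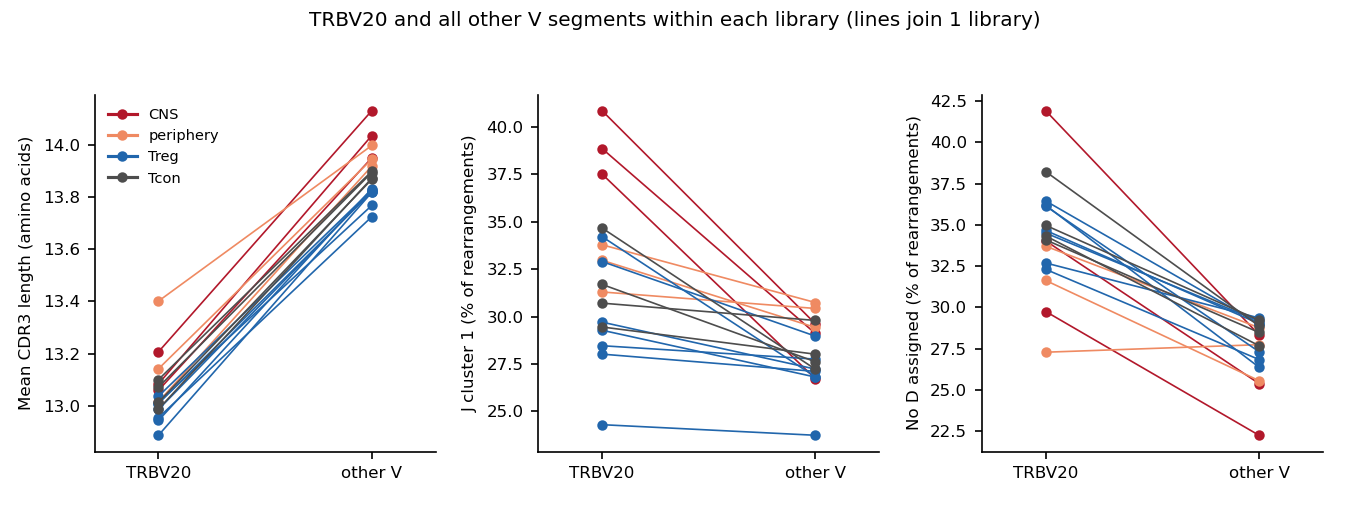
Mean CDR3 length (amino acids), share of J cluster 1 (%) and share with no D assigned (%) for TRBV20 and for all other V segments, with 1 line per library. CDR3 length is lower for TRBV20 in 17 of 17 libraries, J cluster 1 is higher in 17 and no D in 16.

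Among single J partners, TRBJ2-7 (16.9% ± 2.6, SD, n = 17) and TRBJ2-5 (16.0% ± 3.4) were joined to the most TRBV20 rearrangements, followed by TRBJ1-1 (11.6% ± 1.7) and TRBJ2-1 (10.8% ± 2.5). The first pair differed by less than their spread over libraries, as did the second. TRBJ2-3 made up 8.59%, TRBJ2-4 7.96%, TRBJ1-3 7.48%, TRBJ2-2 7.41%, TRBJ1-2 6.34% and TRBJ1-6 4.35%. TRBJ1-5, TRBJ1-4 and TRBJ1-7 were at 1.42%, 0.785% and 0.305%. TRBJ1-2 was used more by TRBV20 than by other V segments in 15 of 17 libraries, by a mean of 1.61 percentage points. TRBJ2-7 was used more by TRBV20 in 2 of 17 libraries, with a mean difference of -2.42 percentage points.

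In CNS, J cluster 1 made up 40.8%, 37.5% and 38.8% of TRBV20 rearrangements, and in the periphery 33.8%, 33.0% and 31.3%. The groups did not overlap, as for 4.55% of the 22 V segments, and nothing is read from this because TRBV20 was chosen for this contrast. With entries beyond the 100-fold limit left out they overlapped, at 39.8%, 29.2% and 39.8% in CNS and 34.1%, 32.0% and 31.0% in the periphery. Weighted by reads they overlapped as well, at 27.2%, 22.2% and 43.4% in CNS, against 31.6% and 38.7% in periphery replicates 2 and 3 and a value between 38.7% and 43.4% in periphery replicate 1. Both of these settings were added after seeing the data. Among other V segments the CNS values were 29.6%, 26.7% and 29.1% and the periphery values 30.7%, 29.4% and 30.4%. TRBJ2-5 was joined to 14 of the 61 large CNS rearrangements. Of these 14, 10 ended in QDTQYF, or 71.4%, against 40.9% of the smaller CNS rearrangements with TRBJ2-5. That ending was looked at after the values were seen. In Treg that ending stood in 52.9% of the 17 large and 53.0% of the smaller rearrangements with TRBJ2-5. The periphery had only 3 large rearrangements with TRBJ2-5 and Tcon 2, with 1 of each ending so. These are too few to compare with the smaller ones, at 54.1% in the periphery and 58.0% in Tcon.

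**Figure D5:**
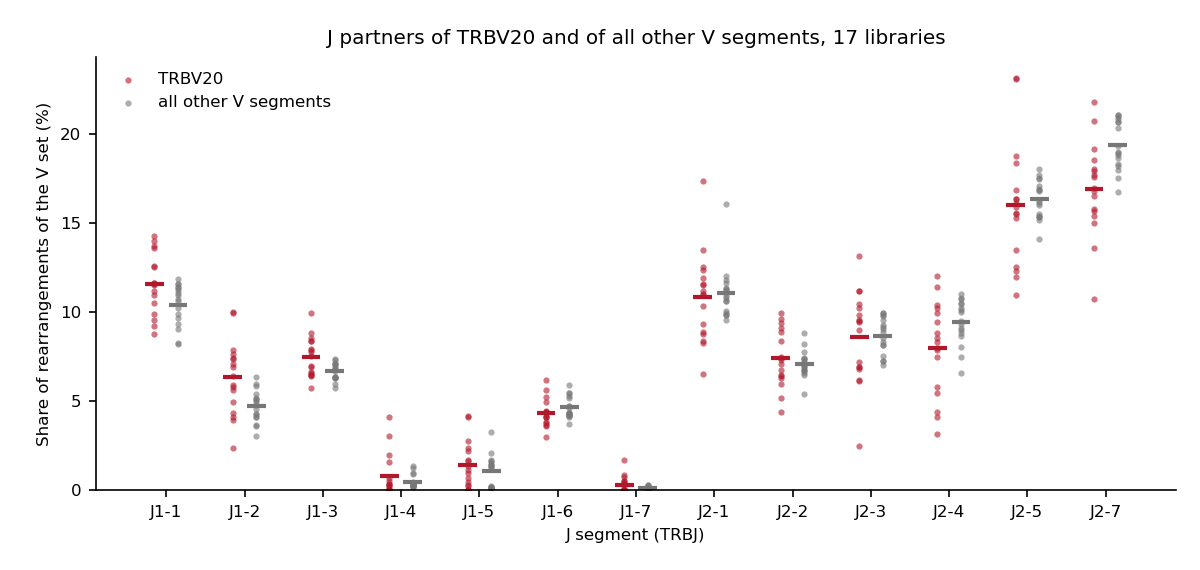
Share of rearrangements (%) joined to each J segment for TRBV20 (red) and for all other V segments (grey) in 17 libraries, with bars at the means. TRBJ1-2 is higher for TRBV20 by a mean of 1.61 percentage points and TRBJ2-7 differs by -2.42.

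Treg and Tcon were compared on rearrangements counted once. TRBV20 did not pass the test. Its fitted log2 difference, Treg minus Tcon, was -0.19 and its SE 0.10 (edgeR, Benjamini-Hochberg adjusted p = 0.235). In this comparison 11.8% of the 34 V and J segments tested passed at an adjusted p of 0.05. Of the 10 TRBV20 pairs with a J segment that were tested, 0 passed and 0 had an unadjusted p under 0.05 (edgeR), and DESeq2 also called 0, while 12.9% of all 171 pairs passed in edgeR. The median log2 change of the 10 pairs was -0.16 and that of all pairs 0.00. The Treg and Tcon libraries carry different run codes in the deposited names, so cell type and run cannot be told apart.

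TRBV20 did not pass the test between E18 and non-preg mice, where the fitted log2 difference was 0.01 and its SE 0.10 (edgeR, Benjamini-Hochberg adjusted p = 0.977). EAE minus Naive gave 0.16 (SE 0.12, edgeR adjusted p = 0.849). In each of these comparisons 0.0% of the 34 segments and 0.0% of the 171 pairs passed. Of the 10 TRBV20 pairs 0 passed in edgeR, 0 had an unadjusted p under 0.05, and DESeq2 called 0. Groups of 1 library borrowed their spread from the remaining groups in these fits.

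The 4 CDR3 features of TRBV20 did not pass in any of these comparisons, and could not have passed, for the reason given below. Mean length was 12.97 amino acids in Treg and 13.02 in Tcon, a difference of -0.054 (exact permutation p = 0.125, adjusted over 12 tests 0.833). J cluster 1 was at 31.8% in E18 and 29.4% in non-preg mice, a difference of 2.46 percentage points (exact permutation p = 0.167, adjusted 0.833). The other 10 tests gave adjusted p of 0.833 to 1. The smallest p these exact two-sided tests allow is 0.0417 for Treg against Tcon and for E18 against non-preg, and 0.25 for EAE against Naive. After adjustment over the 12 tests, even results at these smallest p would lie above 0.05. No conclusion is therefore drawn from these tests.

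Across the 17 libraries, the V segments whose share of rearrangements (log2) had the highest Pearson's r with that of TRBV20 were TRBV13-2, TRBV13-3 and TRBV19. Pearson's r was 0.80, 0.59 and 0.44, and Spearman's rho 0.57, 0.50 and 0.40. TRBV24 had the same r to 2 decimals as TRBV19 and a higher rho, 0.46, so the third place is not settled. The libraries share a depth range and these shares sum to a whole. Without the 3 CNS libraries, r fell to 0.33 for TRBV13-2 and 0.12 for TRBV13-3 and was 0.48 for TRBV19, over 14 libraries. The first 2 relations therefore rested on the CNS libraries.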

How the data were processed

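TCRβ rearrangements were amplified from genomic DNA, per the labels' protocols. The deposited tables give read counts per rearrangement, not normalized, and the fraction of reads, which was recomputed from the counts. The deposited positions of segment ends were not used. Genome build mm10 is named in the submitters' processing notes, and the program that assigned segments is not given in the sources used here.

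Each rearrangement was counted once per library, and reads were an alternative. Segments and V-J pairs with a mean of at least 10 entered the quasi-likelihood test of edgeR 4.0.16 under R 4.3.3, with TMM and Benjamini-Hochberg adjustment at 0.05. V and J tables had separate fits and a joint adjustment. DESeq2 1.42.0 was an alternative. CDR3 features were compared by exact permutation within strata, and TRBV20 against other V segments by sign-flip permutation with 100000 resamples. The edgeR fit and the permutation tests were tested on simulated data. The simulated edgeR changes were larger than those fitted for TRBV20 on rearrangements counted once, and the shift simulated for the permutation within strata was large. These simulations therefore do not show that small changes would be found. Other steps used scipy 1.17.1, pandas 2.3.3 and numpy 2.4.6 in Python 3.11.15, with plots by matplotlib 3.10.9. P-values measure only the spread between these libraries, which may be technical. A count of 0 allows 3 reads, or 0.000525% to 0.00108% of a library.

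TRBV20, the clonotype rule and the lists were chosen with earlier results of these data known. The rule named the J partners, the 3 most similar V segments, the leading clonotype of each library, clonotypes with 1% or more of reads, the 5 with the largest mean CNS share among those in at least 2 CNS libraries, and the 5 in the most libraries with ties by mean share, the last 2 lists after the 100-fold filter. Alternatives were a minimum of 2 reads, a filter on entries held elsewhere at 100 times the reads, clonotypes, reads, no TMM, no minimum mean and each library left out. Leaving out CNS libraries in the likeness of V segments, and J cluster 1 in CNS and periphery with the filter or by reads, were added after seeing the data.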

Additional observations from a re-analysis of the deposited data

Results flagged for a closer look

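Treg EAE E18 replicate 2 stood apart from the other 4 libraries of its group in 3 of the 9 measures examined. TRBV20 was chosen with its large Treg clones known, so these values are a description and not a test. Its TRBV20 share of reads was 47.8%, against 2.61% to 4.14% in the others. Its largest TRBV20 clonotype held 32.9% of reads, against 0.195% to 0.598%. It had 34 large TRBV20 rearrangements, against 3 to 9. The 3 measures share the same reads. Its share of rearrangements was 4.69%, against 3.85% to 4.42%. The number of cells in the library is unknown, and its part in these values was not tested.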

How the results depend on the processing

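Of 266 recomputed values, 240 kept direction and side of the threshold where these applied, 25 changed sign and 1 lost its call. All sign changes were in results that did not pass. The 240 include many values that could not change side, so they are no measure of robustness. The CDR3 feature tests between groups could not pass 0.05, and the CNS minus periphery differences had no threshold. The numbers of TRBV20 pairs that passed were 0 in every setting and had no direction. The call lost was J cluster 1 in TRBV20 against other V segments weighted by reads (5.01 percentage points, adjusted p = 0.183). The log2 change of TRBV20 in Treg against Tcon was 0.72 on reads, and in E18 against non-preg -0.0038 with DESeq2. Weighted by reads, Treg against Tcon gave 1.53 for J cluster 1, -1.41 for no D and -1.98 for hydrophobic residues, and E18 against non-preg gave -3.72 for no D. With at least 2 reads, E18 against non-preg gave -0.115 for no D, and EAE against Naive gave 0.0091 for length and 0.512 for hydrophobic residues. With each library left out, E18 against non-preg ranged from -0.038 to 0.11 for TRBV20 (log2) and from -1.14 to 1.51 for no D. Treg against Tcon ranged from -4.08 to 0.381 for J cluster 1 and from -0.0806 to 1.21 for no D. EAE against Naive ranged from -1.81 to 2.11 for J cluster 1, from -2.39 to 0.651 for no D and from -2.80 to 0.209 for hydrophobic residues. The cause of these changes was not tested. TRBV20 in Treg against Tcon ranged from -0.33 to -0.09 (log2) with a library left out, and its adjusted p over all alternatives from 0.0719 to 0.965. The CNS minus periphery difference in share of reads ranged from 4.47 to 12.1 percentage points with a library left out, the lowest without CNS replicate 3. No paired analysis was possible because the tested groups share fewer than 2 replicate numbers. CNS and periphery share the numbers 1 to 3, and they were left without any test, paired or not, because TRBV20 was chosen for that contrast.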
